A study of Mus musculus with 3 samples.

Results

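A set of 8 genes that encode ligands, secreted factors and partner proteins by which suppressor cells restrain T cells was followed in mouse granulocyte progenitors. They were chosen by name, leaving out the arginase, nitric oxide and oxidase genes, and all 8 had a row among the 24421 gene symbols measured. Cd274 and Pdcd1lg2 encode the checkpoint ligands PD-L1 and PD-L2. Tgfb1, Il10 and Vegfa encode the secreted factors TGF-beta1, IL-10 and VEGF-A. Entpd1 encodes the ectoenzyme CD39, Lgals9 encodes galectin-9, and Havcr2 encodes TIM-3, a receptor to which galectin-9 binds.

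RNA was sequenced from granulocyte progenitors, the bone marrow precursors of neutrophils, purified by flow cytometry from female mice. The control library (NTB) came from mice without a tumor, of an F1 semi-syngeneic strain with the H-2b/d haplotypes. The 4T1-TB library came from mice of that same strain that carried 4T1 cells, a mouse mammary carcinoma line, implanted in the orthotopic site. The IRF8-deficient library came from C57BL/6 mice (H-2b) that genetically lack IRF8, a transcription factor that drives monocyte and dendritic cell fate and restrains granulocyte output. Whether the deficient mice carry a whole-body or a cell-restricted allele, the ages of the mice and how many mice went into a library are facts not given in the sources used here. IRF8 deficiency and strain cannot be told apart in any comparison with that library.

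Granulocyte progenitors are the stage from which granulocytic myeloid-derived suppressor cells arise in tumor-bearing hosts. PD-L1 and PD-L2 on such cells engage PD-1 on T cells and dampen T cell receptor signaling. TGF-beta1 is secreted in a latent complex, must be released to act, and limits T cell proliferation. IL-10 acts through a receptor pair that signals by STAT3, and VEGF-A promotes vessel growth and hinders dendritic cell maturation. CD39 degrades extracellular ATP to AMP, which the ectoenzyme CD73 turns into immunosuppressive adenosine. Galectin-9 is a secreted lectin that binds glycans on TIM-3 and on other receptors.

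There was 1 library per group, so the differences below have no replicate check and carry no p-value. Levels are in RPKM, reads scaled to gene length and library size. From those values 42719510 whole reads were recovered in NTB, 23603465 in 4T1-TB and 36206500 in the deficient library. Intervals are 95% and cover counting error only. Irf8, the gene that the deficient mice lack in function, had an RPKM of 43.8 in NTB, against 8.61 in 4T1-TB and 13.7 in the deficient library, so transcript of the gene was present in the library labelled IRF8-deficient. The 10 listed markers of the labelled cell type, among them Mpo and Elane, were all above 0 and summed to an RPKM of 16704 in NTB, against 19705 in 4T1-TB and 10032 in the deficient library. The 12 listed markers of maturing neutrophils summed to 10031, 14135 and 139658 in the same order, and 12 of 12 were past 2-fold higher in IRF8-deficient than in NTB. In 4T1-TB 6 of those 12 were past 2-fold higher than in NTB. The ribosomal RNA precursor Rn45s took 1.78% of the NTB reads, 6.27% in 4T1-TB and 13.7% in the deficient library. The part that these differences in maturation markers and RNA composition play in the values below was not tested. In bulk RNA, fewer cells that express a gene and less RNA per cell cannot be told apart.

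Because IRF8 binds DNA at interferon-stimulated response elements and at composite elements shared with ETS factors, the promoters of the members were searched for those letters. RefSeq start sites on GRCm38.p6, the assembly also called mm10, gave 9 promoters for 7 of the 8 members, each from 250 bases before to 50 after the start. Il10 was not matched. The response element was searched as GAAANNGAAA and the composite element as GGAANNGAAA, on both strands. They differ in the second letter, so that 1 position on 1 strand cannot match both. Over the 32851 promoters of RefSeq genes, 3.44% held the former and 2.72% the latter. The 250 bases before the start are printed below for Lgals9, the member promoter with the most matches, for Vegfa at its outer start, the other promoter with a match, and for Cd274, which had none and showed the widest fold among the 5 members at an RPKM of 1 or more. Capitals mark matches to these elements and, in Cd274, the core GCGTG of a hypoxia response element.
Lgals9, chr11:78984925-78985174, minus strand: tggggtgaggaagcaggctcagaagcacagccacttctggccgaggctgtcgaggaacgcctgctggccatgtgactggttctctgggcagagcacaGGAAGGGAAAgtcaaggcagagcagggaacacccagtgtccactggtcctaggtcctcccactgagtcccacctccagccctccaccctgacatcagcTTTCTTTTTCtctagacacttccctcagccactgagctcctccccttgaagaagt
Vegfa, chr17:46032378-46032627, minus strand: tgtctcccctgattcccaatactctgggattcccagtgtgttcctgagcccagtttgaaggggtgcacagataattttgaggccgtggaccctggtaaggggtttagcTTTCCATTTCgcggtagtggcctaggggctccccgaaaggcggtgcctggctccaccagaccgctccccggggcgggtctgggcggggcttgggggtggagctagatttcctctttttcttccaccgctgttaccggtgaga
Cd274, chr19:29367188-29367437, plus strand: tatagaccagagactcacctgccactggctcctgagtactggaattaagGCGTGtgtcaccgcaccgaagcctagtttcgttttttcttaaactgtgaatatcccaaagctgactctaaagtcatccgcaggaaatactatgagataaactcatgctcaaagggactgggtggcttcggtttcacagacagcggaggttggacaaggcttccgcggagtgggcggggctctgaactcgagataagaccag

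Positions are counted from the start site, negative before it and positive after it. In Lgals9 the composite element began at -153, and response elements began at -55 and at 16. In Vegfa the response element began at -142 of the outer start. The inner Vegfa start and the promoters of Pdcd1lg2, Tgfb1, Entpd1 and Havcr2 held neither. The hypoxia response cores ACGTG and GCGTG, which differ in the first letter and were searched on both strands, are common in such windows, with 19.6% and 32.4% of all promoters holding them. Both were in the Cd274 window, beginning at 40 and at -201, and both were in the window of the inner Vegfa start. The bases before that inner start, chr17:46025164-46025413, lie within the annotated Vegfa gene and not before it. The core of SP1 sites, GGGCGG, was in 35.7% of promoters, and the Tgfb1 window held 6 of them in either orientation at a GC content of 77%, against a median of 52.7% over all promoters. The interferon-gamma activated element TTCNNNGAA, in 8.3% of promoters, matched in none of the 9. A match is a run of letters and not a measured site.

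The 8 genes fell into 2 ranges (plot of each gene's level in the 3 libraries). Tgfb1 and Lgals9 were among the most abundant transcripts, with 91.6% to 95.4% of all symbols below them in each library. Vegfa had 87.4% to 90.4% of symbols below it, Entpd1 67.9% to 73.4%, and Cd274 59.6% to 63.8%. Symbols at 0 count among those below. Of the 24421 symbols, 14279 were above 0 in NTB, 13658 in 4T1-TB and 13661 in the deficient library. Counted from the top, Cd274 ranked 8979, 8852 and 9864 in that order. Pdcd1lg2, Il10 and Havcr2 did not reach an RPKM of 1 in any library. In NTB the intervals of Tgfb1 and Lgals9 overlapped, as they did in 4T1-TB, so these neighbors were not separated beyond counting error. In IRF8-deficient the order was Lgals9, Tgfb1, Vegfa, Entpd1 and Cd274 with no overlap between neighbors.

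**Figure D1:**
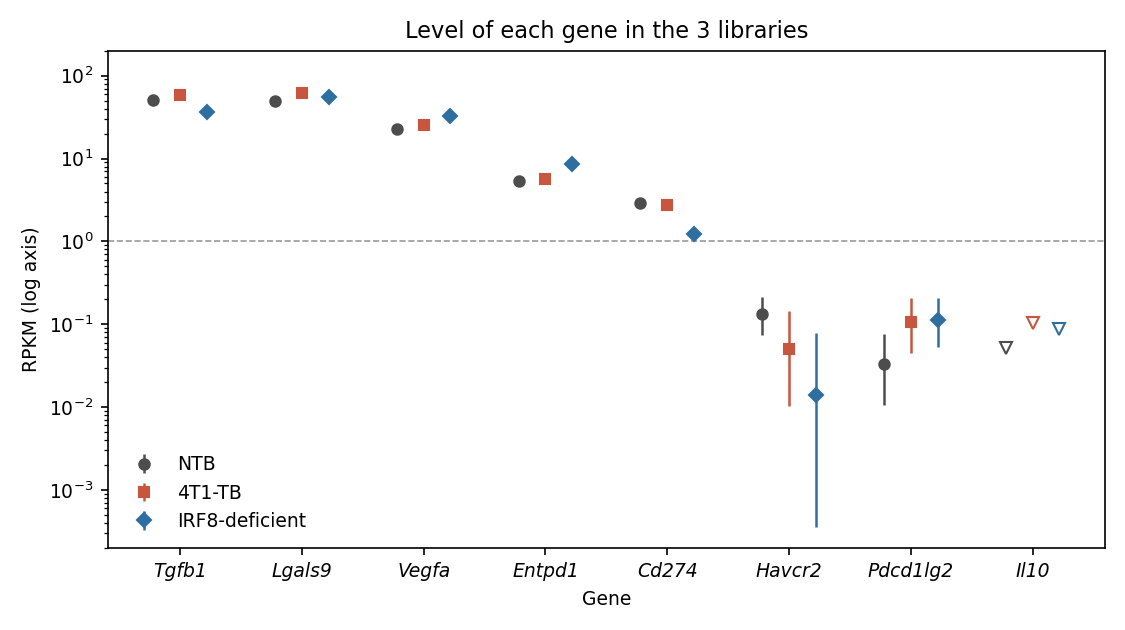
RPKM on a log axis for each of the 8 genes in the NTB, 4T1-TB and IRF8-deficient libraries, 1 point per library with its 95% counting interval, and the dashed line at an RPKM of 1. Open triangles mark the level of 3 reads where a gene was listed at 0. Tgfb1, Lgals9, Vegfa, Entpd1 and Cd274 lie above 1 in every library and Havcr2, Pdcd1lg2 and Il10 below it.

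Differences between libraries were taken on log2(RPKM + 1) for the 5 members at an RPKM of 1 or above in any library. A difference of at least 1 in size, 2-fold on that scale, was called. This scale understates the fold of low genes. Of the 10658 genes compared, 3.02% were called in 4T1-TB against NTB (1.67% higher and 1.35% lower). In IRF8-deficient against NTB 14.5% were called (8.78% higher and 5.73% lower), and in IRF8-deficient against 4T1-TB 15.9% (8.83% higher and 7.07% lower). None of the 5 members was called in any of the 3 comparisons. At these shares of all genes, 0 of 5 is near the background. The median difference of the 5 members was 0.15 in 4T1-TB against NTB, where that of all genes was 0.01. It was 0.17 in IRF8-deficient against NTB and -0.15 in IRF8-deficient against 4T1-TB, where those of all genes were -0.02 and 0.00. The former was 0.01 without the 20 highest genes and turned to -0.36 with summed reads and -0.12 with summed reads without Rn45s and Lars2, scalings described below. The comparisons with NTB share that library and are not independent.

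Cd274, on the plus strand at chr19:29367455-29388095 (ENSMUSG00000016496.7), encodes PD-L1. Its RPKM was 2.87 in NTB (468 reads, interval 2.62 to 3.14), 2.74 in 4T1-TB (221 reads, 2.39 to 3.121) and 1.22 in the deficient library (116 reads, 1.01 to 1.47). NTB and 4T1-TB overlapped, and the deficient library was below both. The ratio of 4T1-TB to NTB was 0.952 (0.808 to 1.12), so a fall or a rise within those bounds was not separable at this depth. Against NTB the deficient library was 2.35-fold lower (1.92 to 2.91), and against 4T1-TB the ratio was 0.446 (0.353 to 0.561). On log2(RPKM + 1) these were differences of -0.80 and -0.75, short of the call at the pseudocount of 1. With a pseudocount of 0.1 they were -1.17 and -1.10 and Cd274 was called lower in both. Of all genes compared 78.2% differed less in size between IRF8-deficient and NTB than Cd274 did. An annotated antisense gene that overlaps Cd274, AC119228.1, was not analysed here, and without a stated strand in the counting its reads cannot be told apart from those of Cd274.

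Pdcd1lg2 lies next to Cd274 on the same strand at chr19:29410919-29471161 and encodes the other PD-1 ligand, PD-L2. The deposited values imply a gene model of 3415 bases, against 1649 of exon in the reference, so the read numbers and levels rest on a longer model than the annotated one. Pdcd1lg2 had an RPKM of 0.0327 in NTB (5 reads), 0.106 in 4T1-TB (8 reads) and 0.112 in the deficient library (10 reads). All 3 levels were close to 0, and their counting intervals overlapped. The ratio to NTB was 3.23 for 4T1-TB (0.931 to 12.5) and 3.43 for IRF8-deficient (1.07 to 12.8). The antisense gene A930007I19Rik overlaps it and had an RPKM of 0.106 in NTB, against 0 in 4T1-TB and 0.0165 in the deficient library, so these few reads are uncertain beyond counting.

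The receptor of both ligands, Pdcd1 (PD-1), was listed at 0 in every library. Of the 20 genes matched in the list of checkpoint ligands and receptors that holds it, 9 reached an RPKM of 1. In IRF8-deficient against NTB 3 of those 9 were past 2-fold higher and 0 lower, with a median difference of 0.85. With summed reads as the scaling, described below, this became 2 higher and 2 lower (median 0.46). Vsir, which encodes the checkpoint ligand VISTA, had an RPKM of 49.0 in NTB, against 52.2 in 4T1-TB and 171.9 in the deficient library, 3.51-fold above NTB (3.43 to 3.59). Icosl, the ligand of the costimulator ICOS, had 1.84, 1.41 and 10.2 (5.53-fold, 4.76 to 6.45). Cd200r1, an inhibitory receptor, had 3.48, 4.48 and 8.22, and its call was lost under 3 of the 4 other library scalings described below. The costimulatory ligand Cd80 had 0.355, 0.265 and 1.44, a difference of 0.85 against NTB that was not called. Cd86, the related ligand, did not reach 1, with 0.0704, 0.248 and 0.226. In 4T1-TB against NTB 1 of the 9 was past 2-fold higher, Cd244a, an NK receptor of the SLAM family, with 0.701 in NTB, 2.66 in 4T1-TB and 0.397 in the deficient library. Thus the deficient library, where Cd274 was lowest, held the highest Vsir, Icosl and Cd80 levels of the 3. Pvr and Tnfrsf14 of the same list were, like Cd274, lowest there. Pvr had 2.44 in NTB, 2.59 in 4T1-TB and 1.06 in the deficient library, and Tnfrsf14 had 42.3, 35.7 and 27.1. Neither was called at the deposited scaling, and both were called lower than NTB with summed reads. Both lay outside the rule for named genes and were added after their values were seen.

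Among 16 compared regulators of PD-L1 transcript and protein, 3 were past 2-fold higher and 1 lower in IRF8-deficient against NTB, with a median of 0.63, and 0 were called in 4T1-TB against NTB (median 0.02). With summed reads 0 were higher and 1 lower in the former (median 0.12). Myc, a transcription factor that binds the PD-L1 promoter, had an RPKM of 69.8 in NTB, against 76.6 in 4T1-TB and 25.7 in the deficient library, 2.72-fold lower than NTB (2.58 to 2.87). Against NTB the ratio of 4T1-TB was 1.1 (1.06 to 1.14), and the sign of that difference turned with summed reads. Cmtm6, which protects PD-L1 protein from lysosomal breakdown, had 22.1, 32.4 and 50.3 (2.27-fold above NTB, 2.17 to 2.38). Zfp36, an RNA-binding protein that destabilizes PD-L1 mRNA, had 22.6, 19.8 and 47.3. The calls of Cmtm6 and Zfp36 against NTB were lost under 3 of the 4 other scalings.

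**Figure D2:**
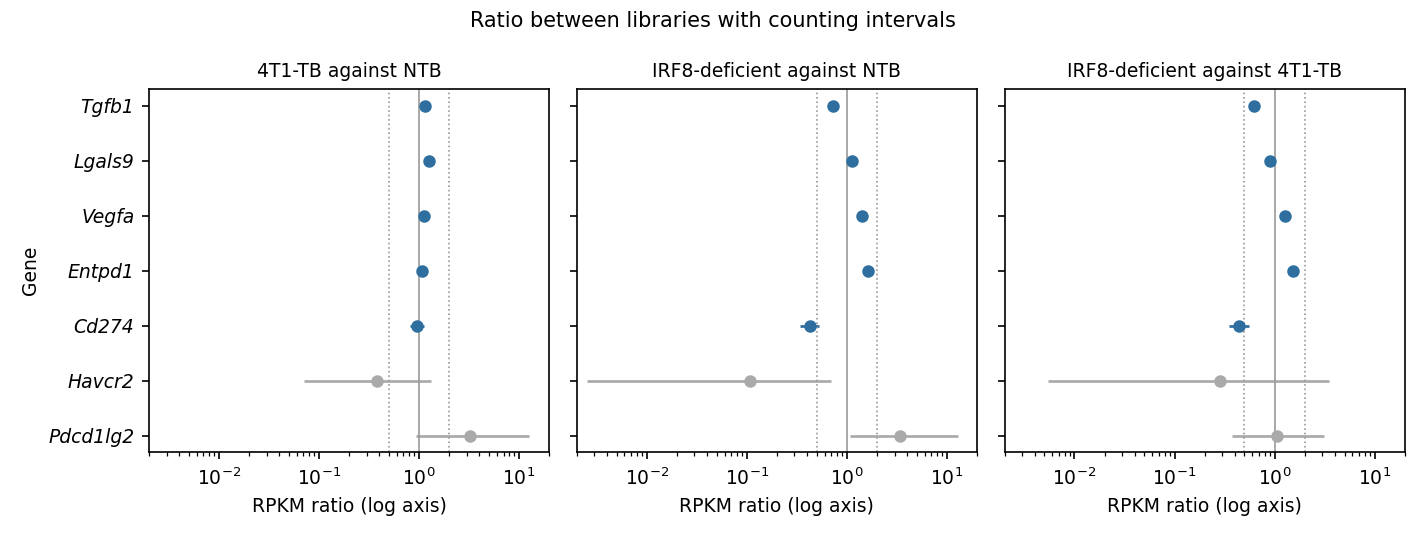
Ratio of RPKM between libraries on a log axis for the 7 genes with reads, 1 panel per comparison, with 95% counting intervals, the solid line at a ratio of 1 and dotted lines at ratios of 2 and 0.5. Blue points are the 5 genes compared and grey points the 2 genes under an RPKM of 1. In 4T1-TB against NTB the blue points lie between 0.952 and 1.25, and in both comparisons of IRF8-deficient only Cd274 of the blue points lies past a dotted line.

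Tgfb1, at chr7:25687002-25705077 on the plus strand, had an RPKM of 50.3 in NTB (4716 reads, 48.9 to 51.7), 58.1 in 4T1-TB (2701 reads, 55.9 to 60.3) and 36.5 in the deficient library (1998 reads, 34.96 to 38.2). The 3 intervals did not overlap, with 4T1-TB highest and IRF8-deficient lowest. The ratio to NTB was 1.16 for 4T1-TB (1.1 to 1.21) and 0.727 for IRF8-deficient (0.689 to 0.766), and IRF8-deficient stood at 0.629 of 4T1-TB (0.593 to 0.667). The directions of the comparisons with the deficient library held under every scaling tried. Against 4T1-TB the difference of -0.65 became -1.03 when libraries were scaled by summed reads, past the call.

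The genes that hold, release and sense TGF-beta gave 15 compared members. In 4T1-TB against NTB 0 were past 2-fold higher and 2 lower (median -0.15), and in IRF8-deficient against NTB 5 were higher and 1 lower (median 0.41). With summed reads the latter turned to 1 higher and 2 lower (median -0.08), and without Rn45s and Lars2 in the sum to 2 and 2 (median 0.14). Nrros, which anchors latent TGF-beta1 on myeloid cells, was high throughout, with an RPKM of 74.3 in NTB, against 72.4 in 4T1-TB and 60.5 in the deficient library, and was not called. Furin, the protease that cleaves the TGF-beta1 precursor, had 10.8, 14.6 and 24.5 (2.27-fold above NTB in IRF8-deficient, 2.15 to 2.4), a call lost under 3 of the 4 other scalings. Thbs1, an extracellular activator of latent TGF-beta, spanned the widest range, at 9.86 in NTB, 0.559 in 4T1-TB and 73.7 in the deficient library. It was 17.6-fold lower in 4T1-TB than in NTB (14 to 22.6) and 7.47-fold higher in IRF8-deficient (7.15 to 7.8), and kept both calls under every scaling. Thbs1 is also a platelet transcript. The 6 listed markers of megakaryocytes and platelets summed to an RPKM of 1.62, 1.39 and 3.54, below Thbs1 in NTB and the deficient library and above it in 4T1-TB, and their part in the Thbs1 values was not tested.

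Of the receptors, Tgfbr1 had an RPKM of 10.6 in NTB, against 9.2 in 4T1-TB and 17.2 in the deficient library, and Tgfbr2 had 3.44, 4.89 and 5.41, with no call for either. The coreceptor Eng had 3.89, 1.3 and 0.836, lower in both other libraries than in NTB (2.99-fold, 2.43 to 3.73, in 4T1-TB and 4.65-fold, 3.67 to 5.96, in IRF8-deficient). The coreceptor Tgfbr3 had 0.28, 0.112 and 1.85. Ski, a corepressor that acts on SMAD proteins, had 5.48, 5 and 13.99 (2.55-fold above NTB in IRF8-deficient, 2.38 to 2.74). The calls of Ski and Tgfbr3 against NTB were lost with summed reads, and that of Ski also without Rn45s and Lars2 in the sum. Skil, a related corepressor and the last of the 5 higher genes, had 4.12, 5 and 9.97 and lost its call under 3 of the 4 other scalings. It lay outside the rule for named genes and was added after its values were seen.

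Il10, at chr1:131019845-131024974 on the plus strand, was listed at 0 in all 3 libraries. At its reference exon length of 1310 bases, 3 reads would have given an RPKM of 0.0511 in NTB, against 0.103 in 4T1-TB and 0.0877 in the deficient library. The upper bounds of the counting interval at 0 reads were 0.0629, 0.127 and 0.108 in the same order, so levels up to those remain possible. The receptor chains were present. Il10ra, the ligand-binding chain, had 2.36, 0.799 and 1.84, and Il10rb, the shared chain, had 14.5, 15.0 and 29.2. Neither was called, though Il10rb against NTB in IRF8-deficient (a difference of 0.96) was called under median ratio scaling and Il10ra in 4T1-TB (-0.90) under scaling by summed reads.

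Of the 8 compared IL-10 family and signaling genes, 1 was past 2-fold higher in 4T1-TB against NTB (median 0.35) and 2 in IRF8-deficient against NTB (median 0.78), with 0 lower in either. With summed reads 1 was lower in 4T1-TB against NTB (median 0.20). In IRF8-deficient against NTB the median was then 0.25, and 0.49 without Rn45s and Lars2 in the sum. Socs3, a feedback inhibitor that cytokines acting through STAT3 induce, had an RPKM of 0.115 in NTB, against 8.37 in 4T1-TB and 0.281 in the deficient library. It was 72.9-fold higher in 4T1-TB than in NTB (43 to 134) and 29.7-fold lower in IRF8-deficient than in 4T1-TB (19.1 to 49.1), so it stood high in the tumor-bearing library alone of the 3. Bhlhe40, a repressor of Il10 transcription, had 3.39, 5.89 and 13.98, and Nfil3, a factor that promotes it in T cells, had 4.6, 8 and 17.1. Both were called higher in IRF8-deficient against NTB under every scaling (4.12-fold, 3.7 to 4.6, and 3.71-fold, 3.3 to 4.18).

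Vegfa, at chr17:46016993-46032369 on the minus strand, had an RPKM of 23.0 in NTB (4295 reads, 22.3 to 23.7), 25.6 in 4T1-TB (2376 reads, 24.6 to 26.7) and 32.4 in the deficient library (3533 reads, 31.4 to 33.5). The 3 intervals did not overlap, and the deficient library was highest. The ratio to NTB was 1.12 for 4T1-TB (1.06 to 1.17) and 1.41 for IRF8-deficient (1.35 to 1.48). Both ratios depended on the scaling. With summed reads the difference of 0.48 between IRF8-deficient and NTB became -0.04. The ratio of 4T1-TB to NTB was 1.03 without the 20 highest genes and 1 with summed reads. Endothelial and stromal markers, 7 genes from cells that respond to or make VEGF-A, summed to at most 0.377 in any library.

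Among 14 compared genes of the VEGF family, its receptors and hypoxia sensing, 2 were past 2-fold higher and 0 lower in 4T1-TB against NTB (median 0.25), and 2 higher and 1 lower in IRF8-deficient against NTB (median 0.24). With summed reads the latter turned to 1 higher and 3 lower (median -0.25), and without Rn45s and Lars2 in the sum to 1 and 2 (median -0.03). The receptors moved apart from one another. Nrp1, a coreceptor of VEGF-A, had an RPKM of 2.18 in NTB, against 0.784 in 4T1-TB and 11.7 in the deficient library, 5.36-fold above NTB (4.88 to 5.9). Nrp2, its paralog, had 1.38, 4.09 and 4.22, called higher than NTB in both other libraries, though in IRF8-deficient the call was lost under 2 of the 4 other scalings. Flt1, which encodes VEGF receptor 1, had 3.29, 4.65 and 1.1, 2.98-fold lower in IRF8-deficient than in NTB (2.66 to 3.34), a difference of -1.03 whose call was lost under median ratio scaling. Prok2, a proangiogenic peptide of neutrophils, was listed at 0 in NTB and had 4.97 in 4T1-TB and 0.203 in the deficient library. Set against 3 reads in NTB, Prok2 was 112-fold higher in 4T1-TB. At the 0 reads listed there, the lower counting bound of the ratio was 90.3. Hif1a, the hypoxia-inducible transcription factor that acts on Vegfa, had 27.2, 41.3 and 28.8 and was not called. Egln3, a hydroxylase that marks it for breakdown, had 13.7, 19.2 and 7.71, called lower in IRF8-deficient against 4T1-TB (2.48-fold, 2.24 to 2.76).

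Entpd1, at chr19:40612366-40741602 on the plus strand, had an RPKM of 5.3 in NTB (1039 reads, 4.98 to 5.63), 5.66 in 4T1-TB (550 reads, 5.19 to 6.15) and 8.68 in the deficient library (992 reads, 8.14 to 9.23). NTB and 4T1-TB overlapped, and the deficient library was above both. The ratio of IRF8-deficient was 1.64 to NTB (1.5 to 1.79) and 1.53 to 4T1-TB (1.38 to 1.71). It kept its direction against both under every scaling, with 1.13 against NTB at the lowest. The ratio of 4T1-TB to NTB was 1.07 (0.961 to 1.19), and its sign turned under 2 scalings. Gene models annotated within Entpd1 on its strand, AC166063.1, Gm16027 and Gm8783, were not analysed here.

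The enzyme that acts after CD39 differed far more. Nt5e, which encodes CD73, had an RPKM of 0.225 in NTB, against 0.176 in 4T1-TB and 5.08 in the deficient library. It was 22.6-fold higher in IRF8-deficient than in NTB (16.1 to 32.7) and 28.9-fold higher than in 4T1-TB (17 to 53.2), and both calls held under every scaling. In NTB and 4T1-TB Entpd1 was thus present with Nt5e near 0, and in IRF8-deficient both were above 5. Ada, which removes adenosine, had 12.1, 27.3 and 27.8, past 2-fold above NTB in both other libraries, calls that were both lost when libraries were scaled by summed reads, that of IRF8-deficient also under 2 other scalings. Of 14 compared purinergic genes 2 were higher and 0 lower in 4T1-TB against NTB (median 0.09), and 2 higher and 1 lower in IRF8-deficient against NTB (median -0.41). With summed reads the latter became 1 higher and 4 lower (median -0.83), and without Rn45s and Lars2 in the sum 1 and 2 (median -0.65). Entpd6, a Golgi and secreted relative of CD39, had 12.7, 13.4 and 5.45, 2.33-fold lower in IRF8-deficient than in NTB (2.07 to 2.62). Entpd4, a Golgi and lysosome relative, had 6.57, 9.17 and 3.22. Entpd3, a cell-surface relative, was listed at 0 in NTB with 1.23 in 4T1-TB and 0.0888 in the deficient library. Its 4T1-TB level was 63.2-fold that of 3 reads in NTB, and the lower counting bound of the ratio at 0 reads was 50.4. The adenosine receptor Adora2b did not reach 1, with 0.0484, 0.22 and 0.145.

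Lgals9, at chr11:78962974-78984946 on the minus strand, had an RPKM of 49.0 in NTB (3480 reads, 47.4 to 50.6), 61.35 in 4T1-TB (2161 reads, 58.8 to 64.0) and 55.2 in the deficient library (2285 reads, 52.9 to 57.5). The 3 intervals did not overlap, and 4T1-TB was highest. The ratio of 1.25 (1.19 to 1.32) between 4T1-TB and NTB was the largest of the 5 compared members, and its direction held under every scaling. IRF8-deficient stood at 1.13 of NTB (1.07 to 1.19), and this turned under scaling by summed reads, where the difference of 0.17 became -0.36. The ratio was 0.916 with summed reads without Rn45s and Lars2, and 1 without the 20 highest genes.

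Havcr2, at chr11:46454935-46481255 on the plus strand, had 16 reads in NTB (RPKM 0.131, 0.075 to 0.213), 3 in 4T1-TB (0.0496, 0.0102 to 0.145) and 1 in the deficient library (0.0141, 0.000356 to 0.0783). The 3 intervals overlapped. The ratio of IRF8-deficient to NTB was 0.107 (0.00256 to 0.69), on 1 read. TIM-3 is known from T cells, NK cells, dendritic cells and macrophages. The 9 listed dendritic cell markers summed to an RPKM of 5.06 in NTB, against 4.01 in 4T1-TB and 8.17 in the deficient library, and the 12 monocyte and macrophage markers to 364.5, 204 and 269.4. The 8 T and NK cell markers summed to at most 0.646, with Cd3e at 0 in every library. Whether the Havcr2 reads came from cells of these kinds was not tested.

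Of 9 compared galectins, TIM family genes and TIM-3 ligands, 0 were called in 4T1-TB against NTB (median 0.05), and 2 were higher and 0 lower in IRF8-deficient against NTB (median 0.05). With summed reads the latter became 2 higher and 2 lower (median -0.47), the lower ones being Lgals1 and P4hb, and without Rn45s and Lars2 in the sum the median was -0.23. Lgals3, which encodes galectin-3, had an RPKM of 7.61 in NTB, against 11.2 in 4T1-TB and 89.6 in the deficient library, 11.8-fold above NTB (10.7 to 13). Ceacam1, a membrane ligand of TIM-3, had 23.5, 28.1 and 123.7 (5.27-fold, 5.08 to 5.46). Both calls held under every scaling. Lgals1, which encodes galectin-1, had 171.8, 100.4 and 109.6, and was not called at the deposited scaling. P4hb, a disulfide isomerase that galectin-9 binds on T cells, had 543.3, 772.4 and 382.2. Galectin-3 and not galectin-9 thus took the largest fold among these genes.

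**Figure D3:**
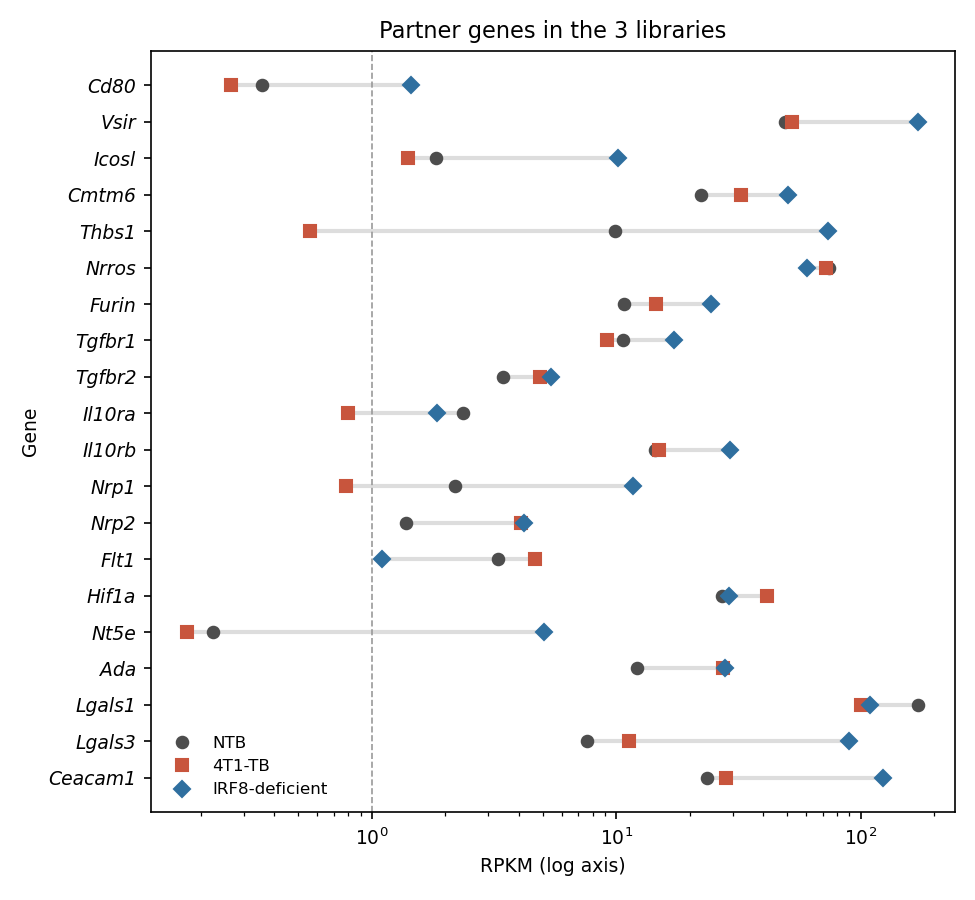
RPKM on a log axis of 20 partner genes of the members in the NTB, 4T1-TB and IRF8-deficient libraries, 1 point per library, with a grey bar from the lowest to the highest and the dashed line at an RPKM of 1. Thbs1 spans 0.559 to 73.7, and the IRF8-deficient point stands apart to the right for Vsir, Icosl, Nrp1, Nt5e, Lgals3 and Ceacam1.

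A last list held 25 other secreted or surface suppressive factors, of which 16 were compared. In 4T1-TB against NTB 2 were higher and 1 lower (median -0.02), and in IRF8-deficient against NTB 8 were higher and 1 lower (median 0.98), while the median of all genes was -0.02. With summed reads the latter became 6 higher and 2 lower (median 0.53). Anxa1, which encodes the anti-inflammatory protein annexin A1 and is abundant in neutrophils, had an RPKM of 176.3 in NTB, against 478.9 in 4T1-TB and 1462 in the deficient library, called higher than NTB in both. Il1rn, the interleukin-1 receptor antagonist, had 0.324, 1.19 and 7.49 (23.1-fold above NTB in IRF8-deficient, 16.7 to 32.9). Spp1, which encodes osteopontin, had 1.87, 1.52 and 11.6. Tnf, a proinflammatory cytokine on the list for its part in suppressor cell function, had 3.88, 3.73 and 16.9. Il27, which encodes the p28 chain of interleukin-27, had 0.285, 0.128 and 2.72. Hmox1, a heme-degrading enzyme, had 1.2, 3.6 and 4.79, called higher in 4T1-TB except under 2 scalings. Ccl3, a chemokine, had 1.7 in NTB and 0.057 in 4T1-TB, a ratio of 0.0336 (0.000837 to 0.195) on few reads, and 1.36 in IRF8-deficient. The 12 maturing neutrophil markers moved with these genes in the deficient library, as given above, and their part was not tested.

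The scaling of the libraries set how the members could be read. Divided by the summed recovered reads, the library size behind the deposited RPKM was 1.05 for NTB, 0.941 for 4T1-TB and 0.721 for the deficient library. The 4 other scalings tried were median ratio, sums without the 20 highest genes, summed reads, and summed reads without Rn45s and Lars2, the last chosen after the data were seen. In IRF8-deficient against NTB they moved the median difference of all genes by 0.04, -0.14, -0.48 and -0.26, and the share of called genes that were higher from 60.5% to 64.8%, 45.4%, 19.3% and 35.1%. In IRF8-deficient against 4T1-TB that share went from 55.5% to 24.6% with summed reads and to 36.1% without Rn45s and Lars2. In 4T1-TB against NTB it went from 55.3% to 42.5% with summed reads. With summed reads the ratios of IRF8-deficient to NTB were 0.292 for Cd274, 0.5 for Tgfb1, 0.971 for Vegfa, 1.13 for Entpd1 and 0.775 for Lgals9. The order of the members from Entpd1 down to Cd274 was the same under each (plot of ratios by library scaling), because a scaling multiplies all genes of a library alike.

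**Figure D4:**
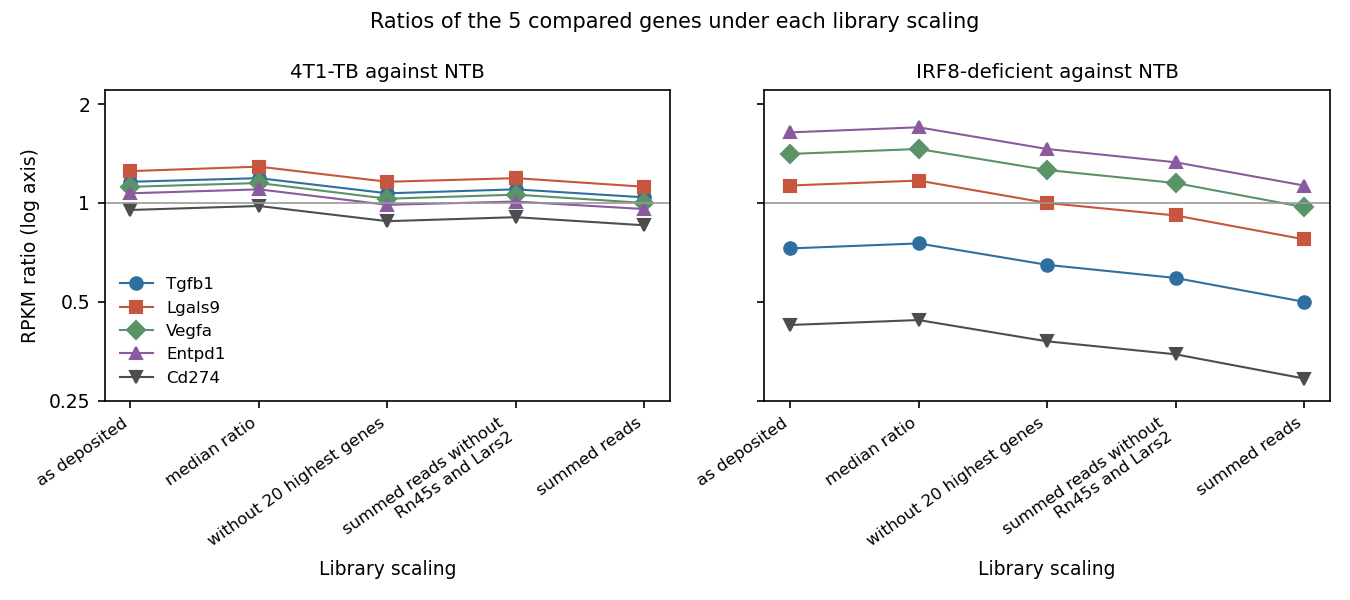
Ratio of RPKM to NTB on a log axis for the 5 compared genes under the deposited scaling and 4 others, with 4T1-TB on the left and IRF8-deficient on the right and a line at a ratio of 1. On the right Cd274 runs from 0.425 as deposited to 0.292 with summed reads and Entpd1 from 1.64 to 1.13, so that Vegfa and Lgals9 cross the line and Cd274, Tgfb1 and Entpd1 do not.

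Ratios between members within a library do not depend on that scaling. Among the 5 compared members there were 10 pairs. The interval of the change in ratio excluded 1 for 5 of the 10 in 4T1-TB against NTB and for 10 of 10 in both comparisons of IRF8-deficient. The share of all gene pairs that would do so was not computed, so whether these counts are particular to the members is not known. The intervals cover counting error only, and the 10 pairs share 5 genes and are not independent. The widest change was that of Cd274 to Entpd1, whose RPKM ratio was 0.542 in NTB, 0.484 in 4T1-TB and 0.141 in the deficient library, a 3.85-fold lower ratio in the deficient library than in NTB (3.09 to 4.81). Tgfb1 to Vegfa was 2.19 in NTB, 2.27 in 4T1-TB and 1.13 in the deficient library, 1.94-fold lower in the deficient library than NTB (1.81 to 2.08). Tgfb1 to Lgals9 was 1.03, 0.947 and 0.662. In 4T1-TB against NTB no pair changed by more than 1.32-fold. These are mixtures of transcripts over whole libraries and do not show which cells carried them.

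Many genes shared the pattern of each member over the 3 libraries, as 3 values allow. By distance between the 3 centred log2(RPKM + 1) values, Cd274 was nearest to Huwe1, Pabpc1 and Limk1, and 162 of 10126 genes searched lay within a distance of 0.1. Tgfb1 was nearest to Ppib, Bst2 and Etfa (323 within 0.1), and Vegfa to Cnbd2, Dnm2 and Oip5 (314 within 0.1). Entpd1 was nearest to Fam21, Dbnl and Rela (244 within 0.1), and Lgals9 to Dap, Srp14 and Cers2 (217 within 0.1).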

How the data were processed

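The deposited values were RPKM per gene symbol, made by the authors in 3 libraries. The submitters' processing notes give mm10 and, without the role of each, TopHat2 2.0.13, HTSeq 0.6.1, edgeR 3.12.1, cutadapt 1.2.1, CASAVA 1.8.2 and Picard 1.97. Strandedness, annotation and how library sizes were formed: not given in the sources used here. A gene's RPKM stood in whole-number ratios between libraries, so whole reads were recovered for 15158 genes. Before a common factor was chosen, implied lengths were whole within 0.02 bases for 91.2% of the better-covered genes with reads in all 3 libraries. Those genes also had a GENCODE M21 length, and the library size was chosen to make this share highest. For 90.9% of 15012 genes with a GENCODE M21 length the final implied lengths were within 0.8 to 1.25 of it. The 90.9% is not independent either, since that length helped choose the common factor. Levels carry exact Poisson intervals, ratios exact binomial (Clopper-Pearson) intervals and changes of ratios a normal approximation on the log scale. Differences were on log2(RPKM + 1), with no statistical test at 1 library per group. The members and the 8 lists of 155 related genes (154 matched, 98 compared) were chosen with earlier results of these data known. Named were all members, 18 fixed partners, up to 4 called genes per list and comparison, and the 3 nearest genes to each compared member. A gene that this rule names is not reported here. The steps were run on simulated data built from the recovered library sizes and whole gene lengths, so that run cannot check those assumptions. The software was pandas 2.3.3, scipy 1.17.1 and numpy 2.4.6 under Python 3.11.15, with plots by matplotlib 3.10.9.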

Additional observations from a re-analysis of the deposited data

How the results depend on the processing

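Values run in the order 4T1-TB against NTB, IRF8-deficient against NTB and IRF8-deficient against 4T1-TB unless a comparison is named. No member was called in 4T1-TB against NTB under any alternative. In each of the other comparisons the count called lower went from 0 to 1 with a pseudocount of 0.1 (Cd274) and with summed reads (Cd274 against NTB, Tgfb1 against 4T1-TB). No alternative called a member higher. The median difference of the members was 0.04, 0.01 (the first 2 comparisons) without the 20 highest genes and 0.00, -0.36 and -0.53 with summed reads. In the comparisons of IRF8-deficient it was -0.12 and -0.37 with summed reads without Rn45s and Lars2, and 0.32 and 0.09 over members at an RPKM of at least 5, which leaves out Cd274. With no filter it was -0.05 in the last. Signs turned for Entpd1 in 4T1-TB against NTB (0.08 to -0.02 without the 20 highest genes and -0.05 with summed reads). With summed reads they also turned for Vegfa (0.48 to -0.04 against NTB and 0.33 to -0.04 against 4T1-TB) and Lgals9 (0.17 to -0.36 against NTB, and -0.12 without Rn45s and Lars2).

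Of all genes, 178, 936 and 941 were called higher and 144, 611 and 754 lower. With a pseudocount of 5 these were 65, 526 and 475 higher and 21, 149 and 311 lower, and at 4-fold 47, 203 and 178 higher and 5, 41 and 50 lower. A pseudocount of 0.1 gave 282 higher and 354 lower in the first comparison and 1071 lower in the second, and an RPKM of at least 5 gave 115 higher and 74 lower in the first. Summed reads gave 467 and 508 higher and 1955 and 1553 lower in the comparisons of IRF8-deficient, and without Rn45s and Lars2 620 higher against NTB and 1148 and 1134 lower.

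Of the 98 related genes, 8, 27 and 22 were higher and 3, 5 and 12 lower, with medians of 0.05, 0.34 and 0.31. A pseudocount of 5 gave 2, 15 and 13 higher and 1, 2 and 4 lower, and a call at 4-fold 2, 7 and 7 higher and 1, 0 and 2 lower. A pseudocount of 0.1 gave 7 and 10 lower in the first 2 comparisons and a median of 0.47 in the second. An RPKM of at least 5 gave 3 higher and 1 lower in the first, and 3 lower and a median of 0.49 in the second. Summed reads gave 5 lower in the first, 15 higher and 16 lower in the second, and medians of -0.09, -0.07 and -0.02. Without Rn45s and Lars2 these were 17 higher and 8 lower in the second and medians of 0.13 and 0.11 in the comparisons of IRF8-deficient. The median in the second was 0.22 without the 20 highest genes, and with no filter it was 0.09 and 0.07 in the comparisons of IRF8-deficient. The cause of these shifts was not tested beyond what each alternative changes. With 1 library per group, no alternative leaves out a replicate. No paired analysis was possible because each group holds 1 library. Pdcd1lg2, Il10 and Havcr2 had at most 16 reads in a library, so their ratios have wide counting intervals or none.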
